A study of Mus musculus with 12 samples.

Results

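This account compares the adult hippocampus of mice given ethanol on postnatal days 6 and 7 with that of mice given saline on the same days, where both lived in standard cages. It covers 6 of the 12 libraries in the series and every gene whose mean over the 12 libraries reached 1 TPM, which was 14947 of the 36119 genes in the table. The standard ethanol group was 3 C57BL/6 mice that received subcutaneous ethanol at 2.5 g/kg in 0.15 M saline, given as 2 injections 2 hours apart on each of the 2 days. The standard saline group was 3 C57BL/6 mice that received 0.15 M saline in equal volume on the same schedule. From postnatal day 21 both groups lived in standard housing, and the hippocampus was taken on postnatal day 70. The other 6 libraries, 3 enriched ethanol and 3 enriched saline mice, had the same injections and then lived in large cages of 2 to 6 littermates of 1 sex with running wheels and objects; here they share the estimate of spread and are set beside the results as another pair of groups. The labels name no engineered allele in any group and every animal was injected, so the comparison sets ethanol against its vehicle. The sample tags call the exposure prenatal although the protocol gives injections after birth, an age when the mouse forebrain is in a growth stage often set against late human gestation. The labels used here do not state the sex or litter of each mouse, so p values reflect only the scatter among the libraries at hand, which may be smaller than that among litters.

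Ethanol enhances GABA-A receptor currents and blocks NMDA receptors, and in the newborn rodent brain a high dose is known for triggering apoptosis of neurons within hours. The dentate gyrus of the hippocampus goes on making granule neurons into adult life: radial glia-like stem cells give rise to dividing progenitors, then to immature neurons marked by doublecortin, and these mature into granule cells. Perinatal ethanol has been studied for lasting effects on this lineage, on myelin, on synaptic genes and on imprinted growth genes, and those groups of genes are followed below.

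Values are the deposited TPM, a measure of transcript abundance scaled to transcript length, so levels of different genes can be set side by side. Library values are given in the order of replicates 1, 2 and 3. A difference is the log2 of TPM plus a pseudocount of 0.5, standard ethanol minus standard saline, with the standard error (SE) from a limma fit over all 12 libraries and n = 3 per group; the pseudocount understates the change of low genes. The table gives no read counts, so depth is unknown and no counting interval is given. The 6 libraries resembled each other closely, with Spearman correlations between 0.980 and 0.989 across genes. All carried hippocampal markers: Prox1, the transcription factor of granule cells, had 41.9, 24.4 and 24.4 TPM in standard ethanol, against 23.2, 40.4 and 31.4 TPM in standard saline. Wfs1, a marker of CA1 pyramidal cells, had 54.4, 65.5 and 46.4 TPM in standard ethanol, against 43.1, 40.9 and 59.3 TPM in standard saline. Standard saline replicate 2 stood apart in several marker lists. Its mean over mature granule cell markers was the highest of the 6 libraries and its means over myelin, meningeal fibroblast, neocortex and immediate-early genes were the lowest, so the lists of these groups and most genes named from them are given with and without it. Standard ethanol replicate 1 held more choroid plexus RNA than the others, with Ttr, the transthyretin gene of that tissue, at 385, 31.3 and 24.3 TPM in standard ethanol, against 118, 81.7 and 61.6 TPM in standard saline.

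Between adult mice given ethanol as pups and their saline controls few single genes passed the test, and most estimated differences were small. Genes of immature neurons leaned higher in standard ethanol, with Dcx averaging 8.85 ± 0.966 TPM in standard ethanol and 5.19 ± 1.016 TPM in standard saline (SD, n = 3 each), and markers of mature granule cells leaned lower, with Trpc6 averaging 28.97 ± 1.22 TPM in standard ethanol and 45.2 ± 7.2004 TPM in standard saline. Imprinted and growth cone genes also leaned higher, whereas immediate-early, apoptosis and antioxidant genes had no or few members whose groups did not overlap. After Benjamini-Hochberg adjustment over 14947 genes, limma called 1 gene higher (0.00669% of those tested) and 1 gene lower (0.00669%) in standard ethanol, and the next smallest adjusted p was 0.195. At an unadjusted p under 0.05, 561 genes were higher (3.75%) and 544 were lower (3.64%) in standard ethanol. In 914 genes (6.11%) all 3 standard ethanol libraries lay above all 3 standard saline libraries, and in 895 genes (5.99%) all 3 lay below. These shares are the background against which the members of each group of genes are read below. Leaving out standard saline replicate 2 gave 7 called genes, and leaving out standard saline replicate 1 gave 4. Without standard saline replicate 2, when 2 saline libraries make separation easier, the groups did not overlap in 10.6% of genes on the higher and 11.9% on the lower side, and 3.35% were higher and 4.02% lower at an unadjusted p under 0.05.

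The estimates also show what sizes of difference the 6 libraries could resolve. The median SE was 0.128 on the log2 scale over all tested genes, 0.281 for the 3303 genes with a mean of 1 to 5 TPM and 0.0896 for the 7334 genes at 20 TPM or more. For 10653 genes (71.3%) the 95% interval of the difference lay within a 1.5-fold change in either direction, and among genes at 20 TPM or more this held for 94.8%. An interval within a 2-fold change was found for 13390 genes (89.6%) and for 99.1% of genes at 20 TPM or more. The estimate itself lay beyond 1.5-fold in 586 genes, of which 156 had a mean of at least 5 TPM, and beyond 2-fold in 191 genes, of which 31 had a mean of at least 5 TPM. The median difference over all tested genes was 0.0024.

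**Figure D1:**
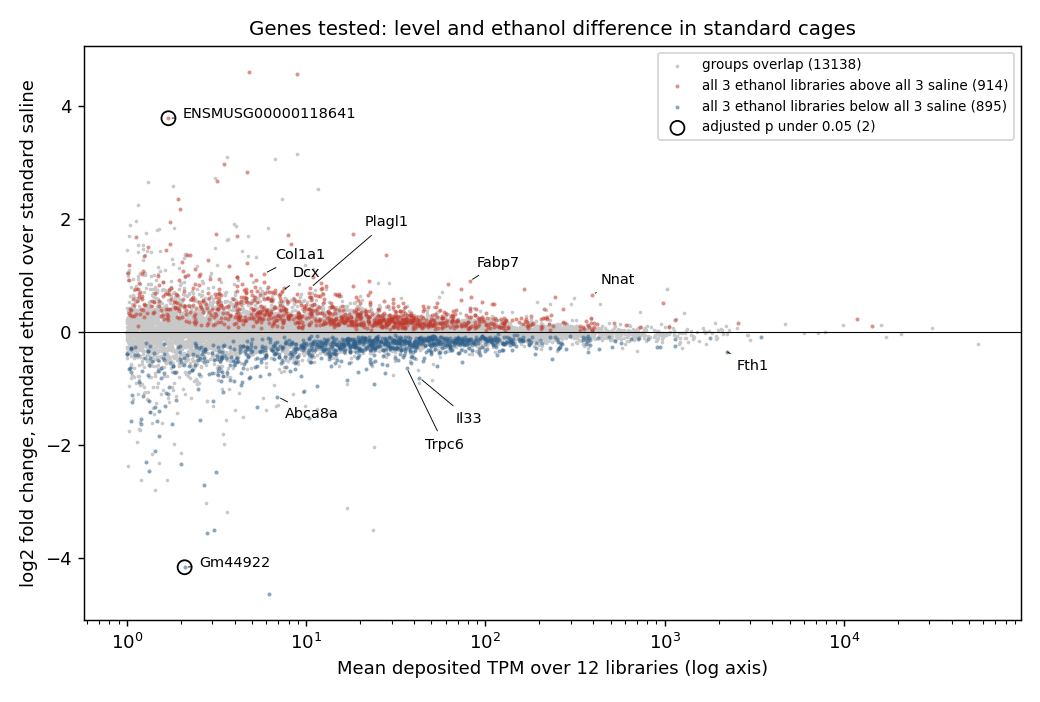
Difference between standard ethanol and standard saline (y axis, log2 of TPM + 0.5) against the mean level over 12 libraries (x axis, TPM, log scale) for each of the 14947 tested genes. Colour marks the 914 genes whose 3 standard ethanol libraries all lay above and the 895 whose libraries all lay below the standard saline libraries, and rings mark the 2 genes called at an adjusted p under 0.05; the cloud narrows with level, the heights of genes at 0 in a group depend on the pseudocount, and labelled genes are described in the text.

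In both called genes 1 group was at 0 and the other above 0, and neither encodes a known protein in the annotation used here. Gm44922, an unprocessed pseudogene of 90 bases on the minus strand of GRCm38 chromosome 11 (73413319 to 73413408), was listed at 0 in all 3 standard ethanol libraries, against 8.47, 8.41 and 8.35 TPM in standard saline (limma adjusted p = 5.67e-05). It was also at 0 in all 6 enriched-cage libraries, so it was above 0 in the standard saline group alone. ENSMUSG00000118641, which has no symbol or position in the annotation used here, had 10.4, 5.69 and 4.41 TPM in standard ethanol, and was listed at 0 in the 3 standard saline and 6 enriched-cage libraries (limma adjusted p = 0.00111). A value of exactly 0 in an estimated TPM table can be a failed estimate, so no size is given for either difference. With a pseudocount of 0.1 neither was called, and both have a mean under 5 TPM. Each reached the required mean of 1 TPM only through the group where it was above 0. The groups at 0 had no scatter, which lowers the shared SE, so these p values cannot serve as support for a difference.

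Another 5 tested genes were listed at 0 in a whole standard-cage group and above 0 in all 3 libraries of the other, which makes 7 in all, and 5 of these 7 are annotated pseudogenes. Gm49286, a transcribed processed pseudogene on the minus strand of chromosome 15 (3991994 to 3992095), was at 0 in all 3 standard ethanol libraries, against 10.4, 9.32 and 17.3 TPM in standard saline. Gm38364, a processed pseudogene, was likewise at 0 in standard ethanol, against 11.1, 3.54 and 3.399 TPM in standard saline. Gm4889, also a processed pseudogene, had 2.11, 0.532 and 1.03 TPM in standard ethanol and was at 0 in standard saline. Of the 31-base windows in each transcript (GENCODE M21), 6 of 60 in Gm44922, 0 of 149 in Gm38364, 55 of 72 in Gm49286, 217 of 414 in Gm4889 and 1060 of 1060 in Gm15725 also occur in a transcript of another gene, and reads from shared windows cannot be assigned to 1 gene with certainty. The transcripts of the called pseudogene and of Gm49286 are shown because they contrast in this respect: capitals mark bases that lie in at least 1 window found in no other gene, and lower case marks bases that lie only in shared windows.

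Gm44922: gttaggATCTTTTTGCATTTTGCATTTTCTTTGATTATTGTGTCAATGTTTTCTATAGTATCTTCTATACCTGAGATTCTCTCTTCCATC
Gm49286: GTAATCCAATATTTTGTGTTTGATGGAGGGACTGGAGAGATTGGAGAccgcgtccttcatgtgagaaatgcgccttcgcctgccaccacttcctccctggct

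The transcript of Gm44922 is nearly all in capitals. Its shared windows, 6 of 60, start at the 5′ end, and each of these 31-base windows runs on into the capitals. By contrast, the 3′ part of Gm49286 also occurs in other genes, most of all in AW549877.

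Among named genes at 5 TPM or more, the 12 with the smallest p in each direction were protein-coding apart from Tmem181b-ps and had moderate differences. None passed the adjusted test: their limma adjusted p values lay between 0.195 and 0.271, and all 24 were chosen for having groups that did not overlap. The genes on the higher side included secreted regulators, growth cone proteins and transcription factors of immature neurons. Plat (chromosome 8, 22757727 to 22782844) encodes tissue plasminogen activator, a secreted protease that turns plasminogen into plasmin and acts in synaptic plasticity. It had 38.4, 37.4 and 39.9 TPM in standard ethanol, against 29.7, 29.2 and 29.7 TPM in standard saline. For Plat the difference was 0.38 ± 0.059, with the smallest p among annotated protein-coding genes (adjusted p = 0.195). Its libraries hardly varied within each group, and every standard ethanol value was above every standard saline value. Igfbp3 (chromosome 11, 7206086 to 7213923), which encodes a binding protein that holds insulin-like growth factors, had 14.1, 13.6 and 14.1 TPM in standard ethanol, against 8.73, 8.87 and 9.81 TPM in standard saline. Igfbp3 thus differed by 0.58 ± 0.10. Plagl1 (chromosome 10, 13060504 to 13131694), an imprinted zinc-finger transcription factor that regulates other imprinted genes, had 17.2, 13.6 and 17.3 TPM in standard ethanol, against 9.204, 8.09 and 9.81 TPM in standard saline. The difference in Plagl1 was 0.79 ± 0.14. The lowest standard ethanol library of Plagl1 was well above the highest standard saline library.

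The next genes, put together here after their values were seen, act in growth cones or immature neurons or bind actin or microtubules. Marcks (chromosome 10, 37133375 to 37138920), a protein kinase C substrate that links membrane lipids to actin, had 81.3, 75.5 and 77.3 TPM in standard ethanol, against 58.6, 55.6 and 63.1 TPM in standard saline. For Marcks the difference was 0.40 ± 0.069. Its relative Marcksl1 (chromosome 4, 129513581 to 129515985) had 106, 104 and 104 TPM in standard ethanol, against 72.8, 88.98 and 73.5 TPM in standard saline, a difference of 0.42 ± 0.087. In both, the 3 standard ethanol libraries lay close together above a more scattered standard saline group. Tmsb15b2 (chromosome X, 136955265 to 136975497), a thymosin beta gene whose family sequesters actin monomers, had 30.6, 28.1 and 32.9 TPM in standard ethanol, against 19.2, 11.9 and 17.4 TPM in standard saline. The difference in Tmsb15b2 was 0.92 ± 0.16, and 0.72 without standard saline replicate 2. Dpysl3 (chromosome 18, 43320984 to 43438286), which encodes the growth cone protein CRMP4, had 40.7, 42.4 and 36.5 TPM in standard ethanol, against 28.9, 26.2 and 28.1 TPM in standard saline. For Dpysl3 the difference was 0.51 ± 0.10. Dcx (chromosome X, 143855842 to 143933311), the gene of doublecortin, which bundles microtubules in migrating newborn neurons, had 9.85, 7.92 and 8.77 TPM in standard ethanol, against 5.46, 4.06 and 6.04 TPM in standard saline. Dcx thus differed by 0.73 ± 0.14. All 3 standard saline libraries of Dcx were low, replicate 2 lowest. Sox11 (chromosome 12, 27334264 to 27342574), a transcription factor of immature neurons, had 11.7, 11.3 and 10.7 TPM in standard ethanol, against 7.12, 8.68 and 7.903 TPM in standard saline. The difference in Sox11 was 0.49 ± 0.10.

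The remaining genes of this set act at the membrane or in protein turnover. Sstr1 (chromosome 12, 58211772 to 58214444), a somatostatin receptor that lowers neuronal excitability, had 18.1, 15.7 and 18.4 TPM in standard ethanol, against 11.03, 10.4 and 11.2 TPM in standard saline, a difference of 0.65 ± 0.13. Igsf21 (chromosome 4, 140026846 to 140246784), an adhesion protein of inhibitory synapses, had 30.5, 34.7 and 34.7 TPM in standard ethanol, against 22.8, 18.3 and 24.98 TPM in standard saline. Igsf21 thus differed by 0.60 ± 0.13. Rnf122 (chromosome 8, 31111820 to 31131482), a RING-finger ubiquitin ligase, had 9.15, 7.87 and 8.77 TPM in standard ethanol, against 4.82, 4.596 and 4.67 TPM in standard saline. The difference in Rnf122 was 0.81 ± 0.17. For Rnf122 the standard saline libraries were nearly equal and the lowest standard ethanol library was still clearly above them.

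On the lower side stood a microtubule protein, markers of granule cells and their mossy fibres, and immune genes. Map7 (chromosome 10, 20148471 to 20281590), which encodes a microtubule-binding partner of kinesin-1, had 64.3, 64.2 and 59.4 TPM in standard ethanol, against 84.3, 73.5 and 84.1 TPM in standard saline. For Map7 the difference was -0.36 ± 0.066. Trpc6 (chromosome 9, 8544142 to 8680741), a cation channel concentrated in dentate granule cells, had 30.3, 28.01 and 28.6 TPM in standard ethanol, against 42.1, 53.4 and 40.01 TPM in standard saline. The difference in Trpc6 was -0.62 ± 0.12, and -0.50 without standard saline replicate 2, its highest library. Slc30a3 (chromosome 5, 31086106 to 31108237), the transporter that loads zinc into the vesicles of mossy fibre terminals, had 35.2, 30.4 and 36.7 TPM in standard ethanol, against 44.9, 53.8 and 42.2 TPM in standard saline, a difference of -0.45 ± 0.10 that was -0.35 without that library. Both genes were highest in standard saline replicate 2, and both stayed free of overlap. Psd (chromosome 19, 46312087 to 46327156), an exchange factor for the small GTPase Arf6 in dendrites, had 391.7, 404 and 393 TPM in standard ethanol, against 459.6, 518 and 473 TPM in standard saline. For Psd the difference was -0.29 ± 0.059. Snrpb (chromosome 2, 130171414 to 130179403), which encodes a core protein of the spliceosomal snRNPs, had 80.3, 83.9 and 90.6 TPM in standard ethanol, against 105, 105 and 102 TPM in standard saline. Snrpb thus differed by -0.30 ± 0.057. Fth1 (chromosome 19, 9980598 to 9985098), the ferritin heavy chain that stores iron, was among the most abundant transcripts, with 2152, 1917 and 1918 TPM in standard ethanol, against 2604, 2350.3 and 2649 TPM in standard saline. The difference in Fth1 was -0.35 ± 0.076. The ubiquitin-conjugating enzyme gene Ube2e2 (chromosome 14, 18573575 to 18894267) had 131, 129.7 and 121 TPM in standard ethanol, against 159.8, 168 and 144 TPM in standard saline. For Ube2e2 the difference was -0.30 ± 0.068.

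Il33 (chromosome 19, 29925114 to 29960718), a nuclear alarmin cytokine made by glia, had 29.4, 40.4 and 29.6 TPM in standard ethanol, against 73.3, 42.4 and 60.5 TPM in standard saline, a difference of -0.80 ± 0.17. Here standard saline replicate 2 was the lowest saline library and lay just above the highest ethanol library, so that without it the difference was -1.01 and Il33 was among the 7 genes called. Ifit3 (chromosome 19, 34583531 to 34588731), an interferon-induced antiviral gene, had 6.64, 8.58 and 8.51 TPM in standard ethanol, against 15.5, 10.7 and 15.6 TPM in standard saline. The difference in Ifit3 was -0.77 ± 0.16. Il16 (chromosome 7, 83642825 to 83745726), which encodes a cytokine precursor with a neuronal form, had 21.01, 18.3 and 16.1 TPM in standard ethanol, against 24.9, 34.2 and 28.5 TPM in standard saline. For Il16 the difference was -0.64 ± 0.14. Abca8a (chromosome 11, 110025634 to 110095978), an ABC-family lipid transporter gene, had 5.76, 4.01 and 4.62 TPM in standard ethanol, against 11.3, 9.82 and 12.1 TPM in standard saline. Abca8a thus differed by -1.13 ± 0.25. The highest standard ethanol value of Abca8a was well below the lowest standard saline value. The pseudogene Tmem181b-ps (chromosome 17, 6438524 to 6467022) had 28.4, 30.9 and 25.9 TPM in standard ethanol, against 41.6, 38.8 and 39.6 TPM in standard saline. The difference in Tmem181b-ps was -0.49 ± 0.10; its reads may be shared with related genes.

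**Figure D2:**
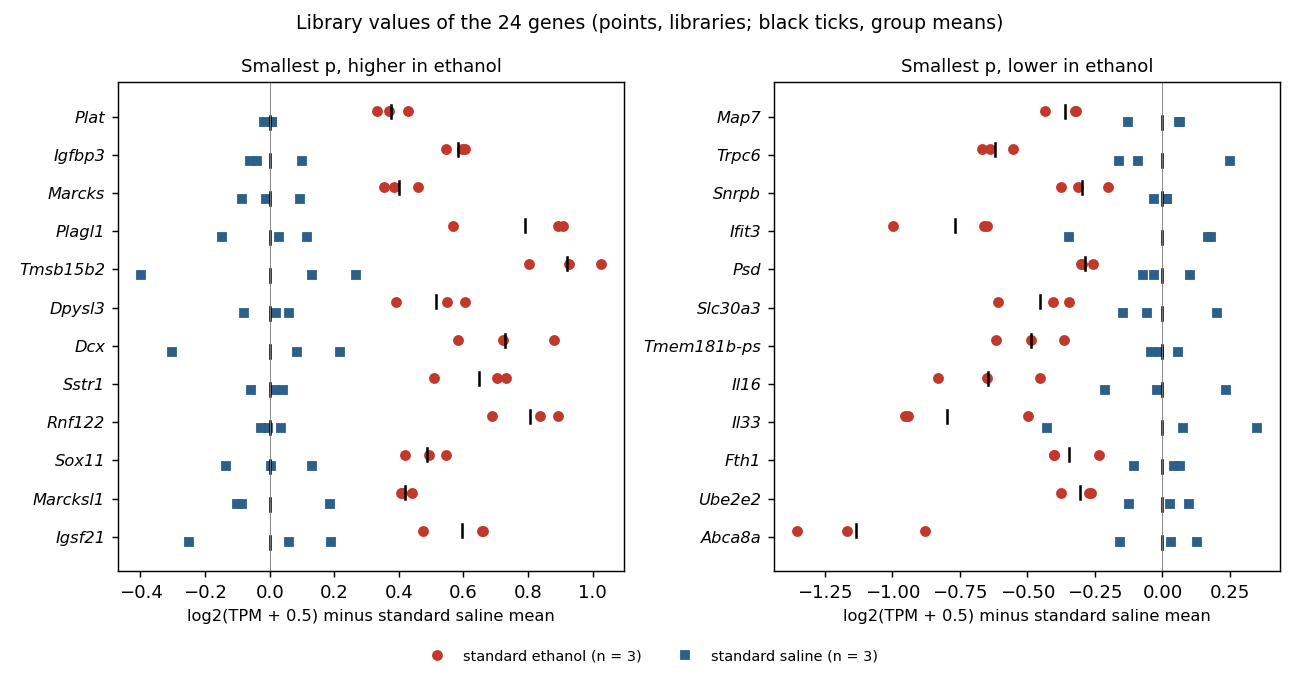
Level of the 24 genes with the smallest p (12 in each direction) in each standard-cage library, as log2(TPM + 0.5) minus the standard saline mean (x axis); genes run down the page and each point is 1 library. The 3 standard ethanol points lie on 1 side of the 3 standard saline points for every gene, as the choice of genes requires, and the spread within a group ranges from very small (Plat) to wide (Il33).

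Among genes with large differences at 5 TPM or more, Fabp7, Col1a1 and Dmpk were on the higher side. Fabp7, the lipid-binding protein of radial glia and astrocytes, had 110.4, 102 and 126 TPM in standard ethanol, against 65.3, 52.4 and 62.6 TPM in standard saline. Fabp7 thus differed by 0.91 ± 0.23. Col1a1, a fibrillar collagen, had 8.21, 7.25 and 9.67 TPM in standard ethanol, against 4.78, 4.28 and 2.64 TPM in standard saline. The difference in Col1a1 was 1.04 ± 0.22. Dmpk, the kinase gene mutated in myotonic dystrophy, had 8.96, 8.17 and 6.24 TPM in standard ethanol, against 4.15, 2.77 and 4.79 TPM in standard saline. For Dmpk the difference was 0.93 ± 0.30. All 3 had groups without overlap, Fabp7 by a wide margin. On the lower side, Plk5, a polo-like kinase of granule cells, had 8.07, 6.88 and 9.602 TPM in standard ethanol, against 14.8, 21.9 and 12.7 TPM in standard saline. The difference in Plk5 was -0.94 ± 0.23, and -0.72 without standard saline replicate 2. Mrpl23, a mitochondrial ribosomal protein gene, had 7.41, 5.17 and 8.53 TPM in standard ethanol, against 16.99, 16.6 and 11.2 TPM in standard saline, a difference of -1.04 ± 0.30. Fam205c had 19.9, 11.47 and 18.5 TPM in standard ethanol, against 30.5, 31.9 and 29.99 TPM in standard saline. For Fam205c the difference was -0.91 ± 0.21. The pseudogene Rps27a-ps1, a copy related to an abundant ribosomal gene, had 3.44, 1.98 and 1.93 TPM in standard ethanol, against 8.85, 5.89 and 5.74 TPM in standard saline. Rps27a-ps1 thus differed by -1.32 ± 0.42.

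Genes of newborn neurons were the group that stood most apart from the background by count. Of 17 tested immature neuron genes, 12 had all 3 standard ethanol libraries above all 3 standard saline libraries and 0 had them below, 11 were higher at an unadjusted p under 0.05, and none passed the adjusted test in limma. The median difference was 0.41, and it ranged from 0.36 to 0.47 when each standard-cage library was left out in turn. The mean of the list, as log2 units around the 12-library mean, was 0.28, 0.21 and 0.21 in standard ethanol, against -0.19, -0.17 and -0.23 in standard saline, so the groups were separate. Besides Dcx, Sox11, Dpysl3 and Marcksl1, the 12 were Nnat, Cd24a, Dpysl5, Stmn2, Sox4, Igfbpl1, Tubb2b and Calb2, of which Cd24a, Dpysl5, Sox4 and Tubb2b are described here after their values were seen. Cd24a, a surface sialoglycoprotein of neuroblasts, had 23.04, 15.8 and 17.2 TPM in standard ethanol, against 10.4, 10.7 and 10.47 TPM in standard saline. The difference in Cd24a was 0.78 ± 0.18. Dpysl5, the growth cone protein CRMP5, had 16.5, 14.2 and 11.7 TPM in standard ethanol, against 7.82, 8.15 and 10.9 TPM in standard saline. For Dpysl5 the difference was 0.63 ± 0.16. Igfbpl1, expressed in neuronal progenitors and immature neurons, had 3.87, 2.97 and 3.31 TPM in standard ethanol, against 1.705, 1.16 and 0.429 TPM in standard saline, a difference of 1.36 ± 0.42. Sox4, the close relative of Sox11, had 11.01, 11.7 and 12.8 TPM in standard ethanol, against 10.3, 7.97 and 8.15 TPM in standard saline. The difference in Sox4 was 0.41 ± 0.12. The more widely expressed tubulin and stathmin genes differed less, with Tubb2b at 169, 186 and 177 TPM in standard ethanol, against 145, 166 and 134 TPM in standard saline. Calb2, the calretinin gene, which interneurons also express, had 43.7, 43.4 and 47.3 TPM in standard ethanol, against 27.03, 42.3 and 35.5 TPM in standard saline (unadjusted p = 0.119). In tissue RNA of this kind, more cells of a type and more RNA per cell cannot be told apart.

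The genes of mature granule cells, the later stage of the same lineage, lay in the other direction. Of 14 markers, 6 were lower in all 3 standard ethanol libraries than in any standard saline library and 0 were higher; 7 were lower at an unadjusted p under 0.05. The median was -0.30, and -0.19 without standard saline replicate 2, when 6 were still without overlap and 4 had an unadjusted p under 0.05. The list mean was 0.078, -0.23 and -0.22 in standard ethanol, against 0.077, 0.54 and 0.070 in standard saline, so it did not separate the groups: standard ethanol replicate 1 matched standard saline replicates 1 and 3. The summed level of the markers was 459 to 555 TPM in standard ethanol and 518 to 744 TPM in standard saline. C1ql2, a secreted synaptic organiser of mossy fibres, had 41.1, 39.8 and 41.3 TPM in standard ethanol, against 57.8, 81.8 and 50.7 TPM in standard saline. For C1ql2 the difference was -0.60 ± 0.15, and -0.41 without standard saline replicate 2. Dsp, the desmoplakin gene, had 17.99, 10.8 and 11.3 TPM in standard ethanol, against 20.3, 33.7 and 19.7 TPM in standard saline. The difference in Dsp was -0.85 ± 0.23, and -0.60 without that library. Pyramidal cell markers showed no such lean: the medians were 0.10 over 10 CA1 markers and -0.018 over 12 CA3 and CA2 markers. In the CA3 and CA2 list Cpne7, a copine, had 131, 123 and 122 TPM in standard ethanol, against 64.9, 105 and 94.7 TPM in standard saline. Of 15 neocortex and subiculum markers 3 were higher and 0 lower without overlap, with a median of 0.11, and 5 were higher and 1 lower without standard saline replicate 2, with a median of 0.080.

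Upstream of newborn neurons, genes of stem cells and division were mixed. Among 26 progenitor and Notch genes 5 were higher and 2 lower without overlap, with a median of 0.10. Hes5, the Notch target that keeps stem cells undifferentiated, had 10.47, 9.71 and 13.3 TPM in standard ethanol, against 16.5, 17.5 and 16.7 TPM in standard saline. The difference in Hes5 was -0.59 ± 0.14. The Notch ligand gene Dll1 had 5.59, 5.42 and 6.14 TPM in standard ethanol, against 6.72, 7.24 and 6.78 TPM in standard saline. The ligand gene Jag2 had 17.3, 17.4 and 20.8 TPM in standard ethanol, against 16.1, 15.7 and 16.1 TPM in standard saline, so the ligands lay in different directions. Fabp7, given above, and Ednrb, an endothelin receptor of astroglia with 45.1, 45.99 and 44.8 TPM in standard ethanol, against 40.4, 38.6 and 37.9 TPM in standard saline, were on the higher side. Of 23 cell cycle genes 4 were higher and 1 lower without overlap, with a median of 0.16. Mki67, the proliferation marker, was near the lower limit of the tested range at 1.34, 2.72 and 1.26 TPM in standard ethanol, against 0.722, 0.9902 and 0.901 TPM in standard saline. Ccna2, the cyclin A2 gene, had 1.8997, 2.38 and 1.92 TPM in standard ethanol, against 1.62, 1.12 and 1.399 TPM in standard saline, and the cell cycle inhibitor gene Cdkn1a had 2.74, 3.41 and 3.75 TPM in standard ethanol, against 2.198, 1.88 and 2.52 TPM in standard saline.

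Imprinted genes, which are expressed from 1 parental copy and are known for controlling growth, were higher more often than the background. Of 29 tested, 9 were higher and 0 lower without overlap, 7 had an unadjusted p under 0.05, and the median was 0.14. Leaving out each standard-cage library in turn gave medians from 0.10 to 0.16. The list mean separated the groups, at 0.18, 0.065 and 0.16 in standard ethanol, against -0.19, -0.13 and -0.12 in standard saline. Nnat, a membrane proteolipid that is also on the immature neuron list, was the most abundant of those without overlap with 462, 492 and 468 TPM in standard ethanol, against 273, 339.9 and 288 TPM in standard saline, a difference of 0.66 ± 0.14. Dio3, the deiodinase that inactivates thyroid hormone, had 5.295, 3.54 and 6.12 TPM in standard ethanol, against 1.21, 1.86 and 2.13 TPM in standard saline. Dio3 thus differed by 1.29 ± 0.32. Mest, a hydrolase-like gene of growing tissues, had 41.3, 45.2 and 44.5 TPM in standard ethanol, against 35.99, 34.8 and 37.1 TPM in standard saline. The difference in Mest was 0.27 ± 0.076. Named after their values were seen, Dlk1, a Notch-like growth regulator, had 6.02, 2.89 and 2.74 TPM in standard ethanol, against 0.407, 1.51 and 1.74 TPM in standard saline. Ndn, the necdin gene of neurons that have left the cell cycle, had 129, 132 and 128 TPM in standard ethanol, against 58.9, 113 and 113 TPM in standard saline. Standard saline replicate 1 was the low library in Ndn, whose unadjusted p was 0.0522. Igf2, an imprinted growth factor made largely by the meninges and choroid plexus in the brain, had 28.04, 23.4 and 35.7 TPM in standard ethanol, against 25.4, 8.91 and 15.7 TPM in standard saline. The groups overlapped, and the difference in Igf2 was 0.88 ± 0.34 with all libraries and 0.51 without standard saline replicate 2. Among 14 insulin-like growth factor genes 3 were higher without overlap, namely Igfbp3, Igfbpl1 and Igfbp7, a vessel-associated binding protein with 23.7, 19.7 and 22.3 TPM in standard ethanol, against 17.4, 15.6 and 12.5 TPM in standard saline, and none were lower; the median was 0.037.

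Oligodendrocyte genes leaned higher in standard ethanol, and the size depended on whether standard saline replicate 2 was included. Of 20 myelin genes 9 were higher and 0 lower without overlap and 10 were higher at an unadjusted p under 0.05. The median was 0.39 with all libraries and 0.20 without standard saline replicate 2, when 9 genes were higher and 3 lower without overlap and only 2 were higher and 2 lower at an unadjusted p under 0.05. The list mean was 0.35, 0.24 and 0.22 in standard ethanol, against 0.29, -0.43 and -0.00090 in standard saline, and the standard saline replicate 1 value lay inside the standard ethanol range. The summed level was 6352 to 6809 TPM in standard ethanol and 3944 to 6691 TPM in standard saline. Cldn11, the claudin of myelin tight junctions, had 230.2, 219.6 and 216 TPM in standard ethanol, against 179, 100.1 and 123 TPM in standard saline. For Cldn11 the difference was 0.77 ± 0.20, and 0.58 without standard saline replicate 2. Mog, a glycoprotein of the outer myelin surface, had 98.7, 92.6 and 95.8 TPM in standard ethanol, against 79.6, 48.8 and 66.7 TPM in standard saline. The difference in Mog was 0.58 ± 0.20, and 0.39 without standard saline replicate 2. Mbp, which encodes myelin basic protein, overlapped between groups at 2336, 2133 and 2166 TPM in standard ethanol, against 2513, 1466 and 2062 TPM in standard saline, and its difference of 0.17 was -0.043 without that library. The earlier stages of the lineage varied less between saline libraries. Gpr17, a receptor of premyelinating cells, had 30.3, 32.4 and 28.5 TPM in standard ethanol, against 18.6, 15.8 and 20.8 TPM in standard saline, a difference of 0.72 ± 0.16. Enpp6, a phosphodiesterase of newly formed oligodendrocytes, had 10.49, 10.6 and 10.98 TPM in standard ethanol, against 8.51, 6.92 and 6.41 TPM in standard saline. For Enpp6 the difference was 0.53 ± 0.17. Olig1, a transcription factor of the whole lineage, had 72.7, 64.9 and 65.4 TPM in standard ethanol, against 58.6, 45.7 and 54.7 TPM in standard saline. In the list of 12 precursor and differentiation genes 3 were higher and 0 lower without overlap, with a median of 0.15 and of 0.10 without standard saline replicate 2. Without that library 3 were higher and 2 lower without overlap, and 2 were higher and 1 lower at an unadjusted p under 0.05. The mean of this list was 0.11, 0.18 and 0.22 in standard ethanol, against 0.15, -0.22 and 0.0091 in standard saline, so the groups overlapped.

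**Figure D3:**
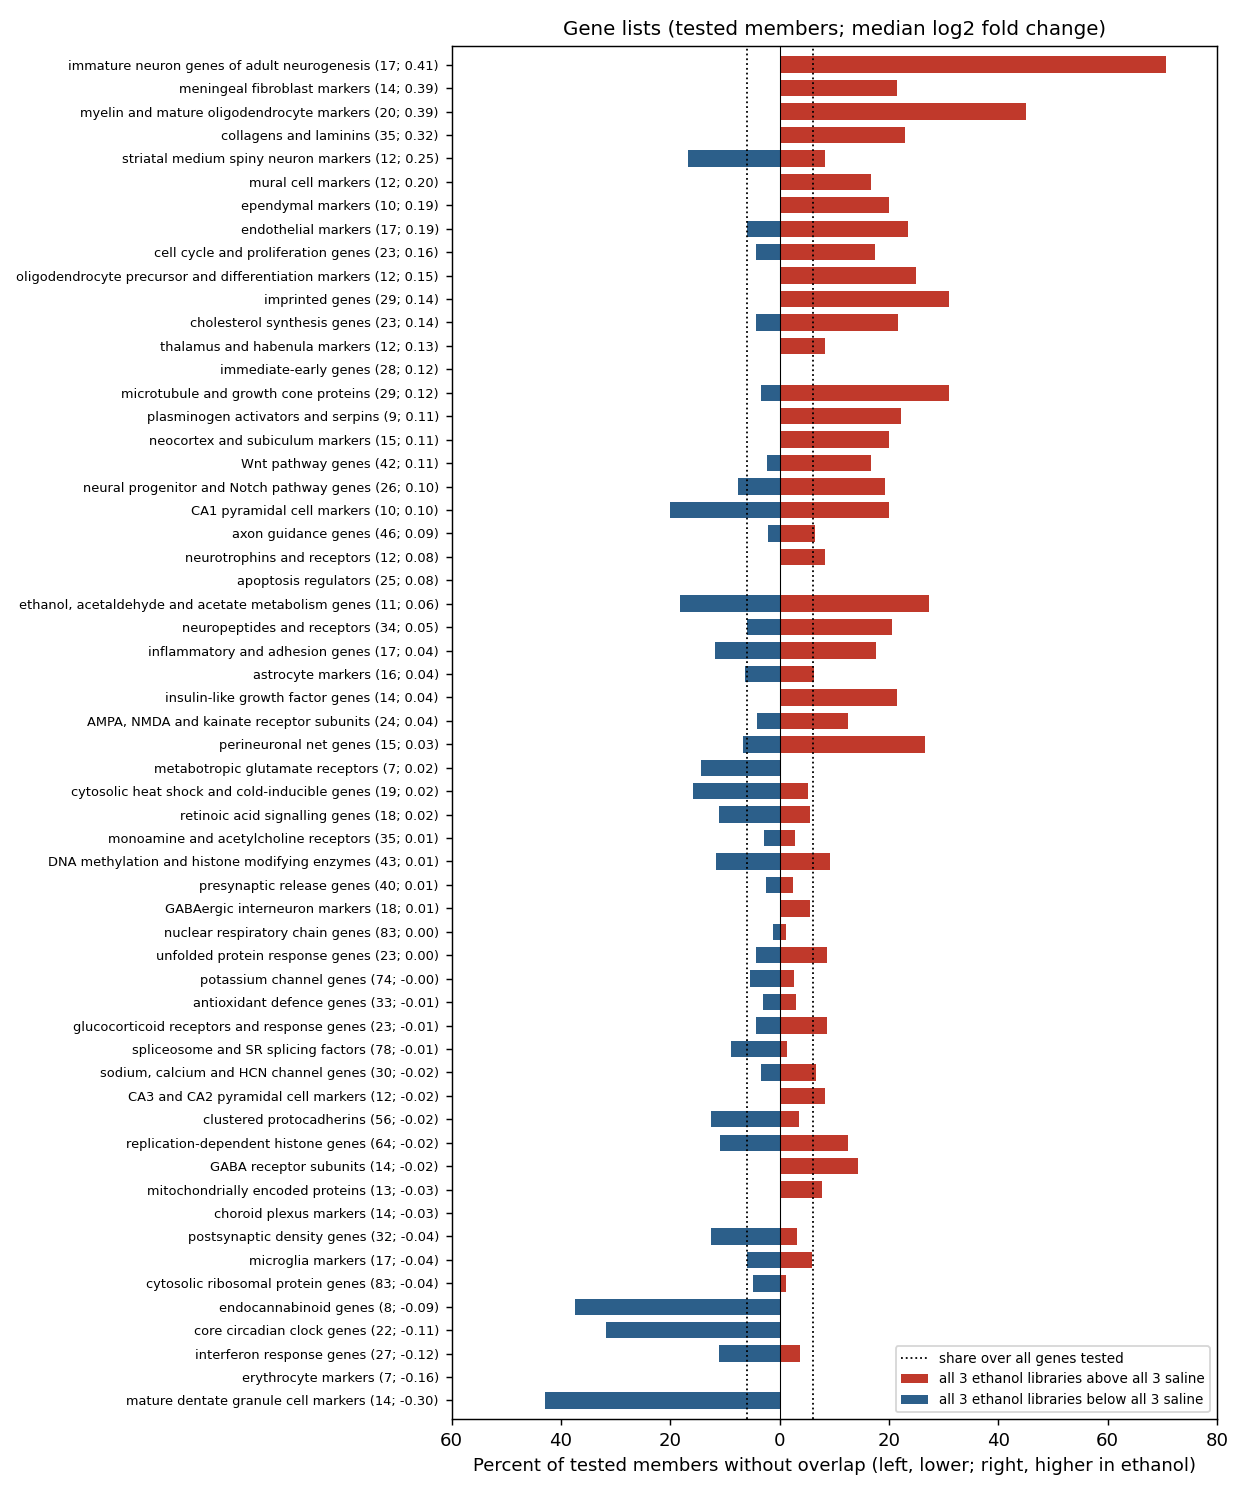
Share of the tested members of each of 58 gene lists (y axis) whose 3 standard ethanol libraries all lay above or all below the 3 standard saline libraries (x axis, percent of members); dotted lines mark the background over all genes, 6.11% higher and 5.99% lower. Immature neuron genes stand far out on the higher side (12 of 17) and mature granule cell markers on the lower side (6 of 14), while several lists sit at 0.

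Matrix genes of fibroblasts and vessels leaned higher in standard ethanol, and again less so without standard saline replicate 2. Of 35 collagen, laminin and related genes 8 were higher and 0 lower without overlap, with a median of 0.32, and of 0.18 without standard saline replicate 2. Without that library 9 were higher and 3 lower without overlap, and 5 were higher and 0 lower at an unadjusted p under 0.05 in limma. Col3a1, a fibrillar collagen, had 8.87, 4.401 and 8.42 TPM in standard ethanol, against 2.63, 1.45 and 1.42 TPM in standard saline. Col3a1 thus differed by 1.71 ± 0.31. Sparc, a collagen-binding glycoprotein of vessels and glia, had 181, 202 and 221 TPM in standard ethanol, against 162, 157 and 173 TPM in standard saline. The difference in Sparc was 0.29 ± 0.080. Lamc1, a laminin chain of basement membranes, had 15.9, 16.2 and 16.1 TPM in standard ethanol, against 11.7, 12.7 and 14.1 TPM in standard saline. For Lamc1 the difference was 0.32 ± 0.10. Meningeal fibroblast markers, which share 3 collagen genes with that list, lay in the same direction: 3 of 14 were higher and 0 lower without overlap, and none was at 0 in any standard-cage library. Their summed level was 228 to 301 TPM in standard ethanol and 138 to 238 TPM in standard saline, and their median was 0.39, but 0.020 without standard saline replicate 2. Dcn, the decorin gene of meninges and of some CA1 neurons, had 81.2, 71.9 and 88.04 TPM in standard ethanol, against 40.3, 44.97 and 46.9 TPM in standard saline, a difference of 0.86 ± 0.20 that was 0.88 without that library. The part of retained meninges in the collagen values was not tested. Of 12 mural cell markers 2 were higher without overlap and none lower, with Rgs5, a pericyte gene, at 47.97, 45.9 and 48.6 TPM in standard ethanol, against 40.5, 42.7 and 39.6 TPM in standard saline. Of 17 endothelial markers 4 were higher and 1 lower, with Cldn5, the claudin of the blood-brain barrier, at 33.3, 34.03 and 31.4 TPM in standard ethanol, against 28.9, 24.7 and 23.5 TPM in standard saline. The vascular endothelial growth factor receptor gene Flt1 was the lower one, with 16.2, 15.2 and 15.7 TPM in standard ethanol, against 18.1, 16.7 and 18.5 TPM in standard saline. Perineuronal net and matrix-remodelling genes counted 4 higher and 1 lower without overlap of 15. Timp2, an inhibitor of matrix metalloproteinases, had 132, 121 and 121 TPM in standard ethanol, against 77.4, 79.4 and 112 TPM in standard saline. The difference in Timp2 was 0.49 ± 0.12, with standard saline replicate 3 closest to the standard ethanol group. The matrix glycoprotein tenascin-C, from Tnc, had 6.46, 5.62 and 6.07 TPM in standard ethanol, against 4.37, 3.05 and 3.97 TPM in standard saline. For Tnc the difference was 0.62 ± 0.18. By contrast Hapln4, a link protein of perisynaptic nets, had 31.9, 31.8 and 30.2 TPM in standard ethanol, against 38.7, 37.9 and 41.3 TPM in standard saline. Hapln4 thus differed by -0.32 ± 0.090.

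Growth cone and Wnt genes leaned higher, and axon guidance genes were near the background by count. Of 29 microtubule and growth cone genes, 6 of which are also on the immature neuron list, 9 were higher and 1, Map7, was lower without overlap, with a median of 0.12. Basp1, a membrane-bound growth cone protein related in function to Marcks, had 366, 381 and 377 TPM in standard ethanol, against 325, 333 and 319.9 TPM in standard saline. The difference in Basp1 was 0.20 ± 0.048. Both groups were tight and well apart in Basp1. Of 46 axon guidance genes 3 were higher and 1 lower without overlap, with a median of 0.088. Slit2, a repellent ligand for Robo receptors, had 25.2, 23.2 and 24.7 TPM in standard ethanol, against 13.01, 18.5 and 17.5 TPM in standard saline, a difference of 0.58 ± 0.13. Epha7, an ephrin receptor, had 98.9, 108 and 82.9 TPM in standard ethanol, against 125, 148 and 109 TPM in standard saline. Epha7 thus differed by -0.39 ± 0.13. The semaphorin genes Sema3c and Sema4d were both on the higher side, Sema4d with 75.2, 70.6 and 63.2 TPM in standard ethanol, against 52.99, 46.6 and 58.02 TPM in standard saline. Of 42 Wnt pathway genes 7 were higher and 1 lower without overlap, with a median of 0.11. Among the ligands, Wnt5a had 6.59, 6.28 and 8.23 TPM in standard ethanol, against 4.15, 4.53 and 4.55 TPM in standard saline. The difference in Wnt5a was 0.61 ± 0.20. Wnt4 had 6.13, 5.81 and 5.51 TPM in standard ethanol, against 3.34, 3.05 and 5.31 TPM in standard saline. For Wnt4 the difference was 0.56 ± 0.19, with standard saline replicate 3 close to the standard ethanol libraries of Wnt4. Rspo2, a secreted agonist that stabilises Wnt receptors, had 16.7, 18.8 and 15.7 TPM in standard ethanol, against 13.2, 12.2 and 15.2 TPM in standard saline. Rspo2 thus differed by 0.33 ± 0.10. Dkk3, a secreted member of the Dickkopf family that is abundant in hippocampal neurons, was the lower one, with 194, 216 and 196 TPM in standard ethanol, against 263, 235 and 239 TPM in standard saline, a difference of -0.28 ± 0.10.

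Receptors for neuropeptides included several on the higher side, and the glutamate and GABA receptor lists below had fewer, though also above the share over all genes. Of 34 neuropeptide and receptor genes 7 were higher and 2 lower without overlap, with a median of 0.053. Beside Sstr1, the somatostatin receptor gene Sstr2 had 11.6, 15.2 and 14.99 TPM in standard ethanol, against 11.1, 6.83 and 8.47 TPM in standard saline. For Sstr2 the difference was 0.65 ± 0.17, and 0.49 without standard saline replicate 2. Tacr3, the neurokinin B receptor gene, was low but separate, with 2.42, 2.87 and 3.39 TPM in standard ethanol, against 1.0004, 0.614 and 1.92 TPM in standard saline. Tacr3 thus differed by 1.08 ± 0.33. The ligand gene Nts, neurotensin, had 10.1, 12.9 and 11.9 TPM in standard ethanol, against 9.45, 8.26 and 9.33 TPM in standard saline. Penk, the enkephalin precursor found in granule cells and interneurons, had 29.3, 25.1 and 28.3 TPM in standard ethanol, against 40.3, 35.3 and 33.4 TPM in standard saline. The difference in Penk was -0.39 ± 0.15. Of 24 AMPA, NMDA and kainate receptor genes 3 were higher and 1 lower without overlap. Without standard saline replicate 2 this list had 5 higher and 1 lower without overlap, and 4 higher and 0 lower at an unadjusted p under 0.05. Grin3a, an NMDA receptor subunit that is known for restraining calcium entry in young synapses, had 21.6, 23.2 and 21.6 TPM in standard ethanol, against 16.1, 16.7 and 19.9 TPM in standard saline. For Grin3a the difference was 0.33 ± 0.10. Cacng3, an AMPA receptor auxiliary subunit, had 40.6, 37.4 and 42.3 TPM in standard ethanol, against 33.5, 28.3 and 34.7 TPM in standard saline, a difference of 0.32 ± 0.10. GABA receptor subunits counted 2 higher and 0 lower of 14, with a median of -0.025. Postsynaptic density genes counted 1 higher and 4 lower of 32, with a median of -0.041. Kalrn, an exchange factor that shapes dendritic spines, had 345, 341 and 329 TPM in standard ethanol, against 381, 416 and 371 TPM in standard saline. The difference in Kalrn was -0.20 ± 0.060. Camk2b, a subunit of the calcium/calmodulin kinase of synapses, had 501, 471 and 428 TPM in standard ethanol, against 502, 667 and 525 TPM in standard saline. For Camk2b the difference was -0.27 ± 0.10, and -0.14 without standard saline replicate 2. Presynaptic release genes counted 1 higher and 1 lower without overlap of 40, with 0 lower at an unadjusted p under 0.05. Without standard saline replicate 2 the presynaptic list had 2 higher and 8 lower without overlap, and 6 lower at an unadjusted p under 0.05. Of 74 potassium channel genes 2 were higher and 4 lower, with Kcng2, a silent modulatory subunit, at 14.8, 20.8 and 11.7 TPM in standard ethanol, against 21.05, 32.9 and 23.5 TPM in standard saline.

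**Figure D4:**
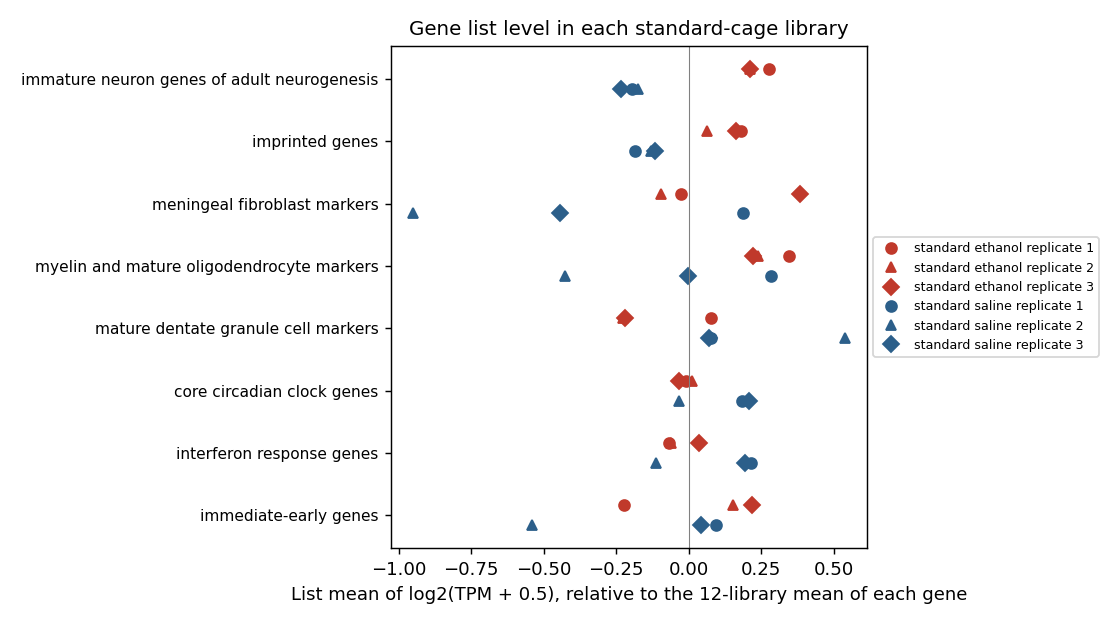
Mean of 8 gene lists (y axis) in each of the 6 standard-cage libraries (x axis, log2 of TPM + 0.5 around the 12-library mean, averaged over the list's tested genes). Each point is 1 library, and standard ethanol is drawn above standard saline within each list. The immature neuron and imprinted lists separate the groups, while in the granule cell, myelin and meningeal fibroblast lists standard saline replicate 2 lies far from the other 5 libraries.

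Clock genes and a pair of cold-inducible genes leaned lower in standard ethanol. Of 22 circadian clock genes 7 were lower and 0 higher without overlap and 3 had an unadjusted p under 0.05, with a median of -0.11. Without standard saline replicate 2 the clock list had 10 lower and 0 higher without overlap, with a median of -0.21. The list mean was -0.0079, 0.011 and -0.031 in standard ethanol, against 0.18, -0.033 and 0.21 in standard saline: standard saline replicates 1 and 3 were high, and standard saline replicate 2 was level with the standard ethanol group. Ciart, a repressor of the clock, had 12.3, 14.9 and 13.1 TPM in standard ethanol, against 18.7, 17.7 and 17.9 TPM in standard saline. Ciart thus differed by -0.42 ± 0.17. Bhlhe40, another transcriptional repressor of clock genes, had 58.3, 64.8 and 61.6 TPM in standard ethanol, against 73.7, 75.8 and 79.2 TPM in standard saline. The difference in Bhlhe40 was -0.31 ± 0.14. Csnk1e, the casein kinase that marks PER proteins for degradation, had 57.02, 60.8 and 59.4 TPM in standard ethanol, against 67.6, 71.7 and 66.6 TPM in standard saline, a difference of -0.21 ± 0.076. The hour at which each mouse was killed is not in the labels used here, so its part in these values was not tested. In the list of 19 heat shock and cold-inducible genes, the pair that mild cooling induces stood out: Rbm3 had 180.2, 179 and 202 TPM in standard ethanol, against 240.1, 258 and 237 TPM in standard saline. Rbm3 thus differed by -0.39 ± 0.090. Cirbp had 74.7, 67.1 and 89.5 TPM in standard ethanol, against 100.3, 94.998 and 90.7 TPM in standard saline. The difference in Cirbp was -0.31 ± 0.092. Both encode RNA-binding proteins, and both had 3 standard ethanol libraries below the 3 standard saline libraries. The heat shock genes of the list were spread around the background, with Hsph1, a chaperone gene, at 169, 175 and 175 TPM in standard ethanol, against 157, 154 and 163 TPM in standard saline and Hspa1a, an inducible HSP70 gene, at 10.7, 9.17 and 9.14 TPM in standard ethanol, against 12.3, 11.1 and 10.9 TPM in standard saline.

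Interferon-induced genes had a lower side, while microglia and astrocyte markers had medians near 0. Of 27 interferon response genes 1 was higher and 3 were lower without overlap and 4 were lower at an unadjusted p under 0.05, with a median of -0.12. Without standard saline replicate 2 the interferon list had 10 lower and 1 higher without overlap and 6 lower at an unadjusted p under 0.05, with a median of -0.21. Ifit3b, a close copy of Ifit3 with which it may share reads, had 4.93, 3.02 and 3.605 TPM in standard ethanol, against 6.42, 6.24 and 8.35 TPM in standard saline. For Ifit3b the difference was -0.80 ± 0.19. Ifi27 had 54.02, 50.05 and 47.4 TPM in standard ethanol, against 62.4, 56.6 and 55.9 TPM in standard saline. The transcription factor gene Irf7, which drives interferon genes, was the higher one, with 2.19, 2.45 and 2.36 TPM in standard ethanol, against 1.78, 1.34 and 1.76 TPM in standard saline. Among inflammatory genes C4b, a complement component, had 16.9, 14.2 and 14.1 TPM in standard ethanol, against 20.5, 17.5 and 30.2 TPM in standard saline. C4b thus differed by -0.55 ± 0.19. Socs3, an inhibitor of cytokine signalling, had 1.66, 1.6002 and 2.12 TPM in standard ethanol, against 1.11, 0.657 and 0.971 TPM in standard saline, a difference of 0.71 ± 0.25. Of 17 microglia markers 1 was higher and 1 lower without overlap, with a median of -0.042; the higher one was Cd68, a lysosomal glycoprotein, with 12.2, 10.2 and 8.78 TPM in standard ethanol, against 6.34, 7.03 and 7.15 TPM in standard saline. Astrocyte markers had a median of 0.043 over 16, and Gfap, the intermediate filament gene of reactive astrocytes, had 252, 248 and 253 TPM in standard ethanol, against 260.0, 219.8 and 267 TPM in standard saline. For Gfap the difference was 0.018 ± 0.090 with a 95% interval from -0.18 to 0.21.

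Activity-induced, apoptosis, antioxidant and respiratory chain genes had few or no members without overlap, and ethanol metabolism and cholesterol synthesis genes had more than the background. No member was free of overlap in either direction among 28 immediate-early genes or 25 apoptosis regulators, and none of these had an unadjusted p under 0.05. The activity-induced genes varied between libraries of the same group: Fos had 17.4, 41.7 and 44.8 TPM in standard ethanol, against 34.5, 5.13 and 27.4 TPM in standard saline. Arc had 82.005, 147 and 157 TPM in standard ethanol, against 160.3, 54.4 and 135 TPM in standard saline, both lowest in standard saline replicate 2. Without that library the differences of Fos, Npas4, Egr1, Arc and Nr4a1 were 0.055, 0.39, -0.015, -0.25 and -0.27, against 0.88, 0.78, 0.38, 0.23 and 0.17 with it. Bdnf, the neurotrophin that supports synaptic plasticity, had 25.4, 27.2 and 21.6 TPM in standard ethanol, against 23.1, 26.3 and 24.2 TPM in standard saline. Bdnf thus differed by 0.0065 ± 0.13 with a 95% interval from -0.29 to 0.30. Antioxidant genes counted 1 higher and 1 lower without overlap of 33, and nuclear genes of the respiratory chain 1 and 1 of 83, with medians of -0.0067 and 0.0049. Of 11 genes of ethanol, acetaldehyde and acetate metabolism 3 were higher and 2 lower without overlap, with a median of 0.056, and of -0.012 without standard saline replicate 2. Acss1, a mitochondrial acetyl-CoA synthetase, had 22.1, 23.8 and 22.4 TPM in standard ethanol, against 18.9, 16.3 and 18.9 TPM in standard saline. The difference in Acss1 was 0.33 ± 0.10. Aldh2, the mitochondrial enzyme that clears acetaldehyde, had 75.03, 89.4 and 82.9 TPM in standard ethanol, against 107, 91.9 and 95.4 TPM in standard saline. For Aldh2 the difference was -0.25 ± 0.13. Of 43 DNA methylation and histone modifying enzyme genes 4 were higher and 5 lower. Tet1, which oxidises methylated cytosine, had 11.1, 12.2 and 12.4 TPM in standard ethanol, against 11.02, 7.401 and 8.22 TPM in standard saline, a difference of 0.42 ± 0.15 that was 0.31 without standard saline replicate 2. Ezh1, a histone methyltransferase of Polycomb complexes, had 38.1, 34.5 and 32.8 TPM in standard ethanol, against 41.5, 41.5 and 39.9 TPM in standard saline. The difference in Ezh1 was -0.22 ± 0.076. Of 23 cholesterol synthesis genes 5 were higher and 1 lower without overlap and 20 had a difference above 0, with a median of 0.14, and of 0.049 without standard saline replicate 2. At an unadjusted p under 0.05, 3 were higher and 1 lower with that library, and 0 and 2 without it. Hmgcs1, an early enzyme of the pathway, had 241, 259 and 259 TPM in standard ethanol, against 224, 188 and 198 TPM in standard saline, and the lower one, Srebf1, a transcription factor of lipid synthesis, had 34.5, 30.3 and 32.9 TPM in standard ethanol, against 54.5, 35.98 and 55.2 TPM in standard saline.

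The enriched-cage mice offered a separate set of libraries in which the same exposure could be set beside the result. In enriched cages limma called 0 of 14947 genes for ethanol against saline (0%), with 1160 at an unadjusted p under 0.05 (7.76%). Of the 1105 genes with an unadjusted p under 0.05 in standard cages, 583 (52.8%) had the same direction in enriched cages, beside 50.2% of all tested genes. Of the 561 higher ones 279 (49.7%) were also higher in enriched ethanol, with a median difference there of -0.00068 against 0.38 in standard cages, and of the 544 lower ones 304 (55.9%) were also lower, with a median of -0.018 against -0.31. Thus the share that kept its direction was close to that of all genes. Genes with an unadjusted p under 0.05 in both housings numbered 138. Of these, 87 had the same direction, 43 higher and 44 lower in both, and 51 had opposite directions. The test of the difference between housings, in the same fit, called 2 genes (0.0134%), the pair of genes called above, and 1107 genes (7.41%) had an unadjusted p under 0.05. That pair was at 0 in every enriched-cage library, so for it this test only repeats the standard-cage comparison.

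Among named genes, some lay the same way in both housings. Sox11 had 12.5, 11.99 and 11.6 TPM in enriched ethanol, against 8.099, 8.78 and 9.08 TPM in enriched saline, a difference of 0.46 ± 0.10 beside 0.49 ± 0.10 in standard cages. Plat had 38.3, 37.1 and 37.1 TPM in enriched ethanol, against 34.1, 33.5 and 31.7 TPM in enriched saline, a difference of 0.18 ± 0.059, and Tmsb15b2 had 22.3, 21.7 and 30.3 TPM in enriched ethanol, against 17.7, 18.3 and 18.4 TPM in enriched saline, a difference of 0.43 ± 0.16. In all 3 of these genes the enriched groups were also free of overlap. On the lower side Trpc6 had 32.04, 32.2 and 32.6 TPM in enriched ethanol, against 34.2, 45.6 and 37.5 TPM in enriched saline, a difference of -0.26 ± 0.12, Hes5 had 10.4, 10.97 and 13.3 TPM in enriched ethanol, against 13.2, 15.2 and 18.3 TPM in enriched saline, a difference of -0.41 ± 0.14, and Rbm3 had 144, 163 and 129.6 TPM in enriched ethanol, against 169.5, 172 and 199.6 TPM in enriched saline, a difference of -0.31 ± 0.090. The immature neuron list had a median of 0.20 in enriched cages, with 15 of 17 genes above 0. Its list mean was 0.016, 0.042 and 0.24 in enriched ethanol, against -0.064, -0.19 and -0.14 in enriched saline. These groups did not overlap, but enriched ethanol replicate 3 lay well above replicates 1 and 2. Dcx had 8.27, 8.39 and 7.96 TPM in enriched ethanol, against 7.53, 6.66 and 7.21 TPM in enriched saline, a difference of 0.19 ± 0.14 (limma, difference between housings, unadjusted p = 0.0204). The myelin list had 18 of 20 above 0, with a median of 0.29. Its list mean was -0.17, -0.11 and 0.32 in enriched ethanol, against -0.13, -0.24 and -0.35 in enriched saline. These groups overlapped, and enriched ethanol replicate 3 lay far above the other enriched-cage libraries. Enriched saline replicate 2 stood apart in choroid plexus markers, which summed to 7952 TPM in it, against 93.2 and 55.7 TPM in the other enriched saline libraries, and its means over the meningeal and collagen lists were the highest of the 12 libraries. Without it, an alternative chosen after seeing the data, the enriched-cage median was 0.12 for the immature neuron list and 0.23 for the myelin list.

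Others lay apart or in opposite directions, although none of these named genes passed the adjusted test of the difference. Map7 had 73.7, 79.3 and 77.6 TPM in enriched ethanol, against 60.5, 62.7 and 63.2 TPM in enriched saline, a difference of 0.30 ± 0.066 beside -0.36 ± 0.066 in standard cages, and the test of the difference between housings gave an unadjusted p of 1.40e-05 and an adjusted p of 0.06997 (limma). The 3 enriched ethanol libraries of Map7 were thus above the 3 enriched saline libraries, the reverse of the order in standard cages. Marcks had 64.1, 64.2 and 72.6 TPM in enriched ethanol, against 68.5, 71.5 and 73.7 TPM in enriched saline, a difference of -0.090 ± 0.069 (adjusted p of the difference between housings 0.4599). Sstr1 had 13.9, 14.98 and 15.8 TPM in enriched ethanol, against 15.2, 22.4 and 16.9 TPM in enriched saline, a difference of -0.26 ± 0.13, and Fth1 had 2388, 2508 and 2153 TPM in enriched ethanol, against 2170.1, 2085 and 1994 TPM in enriched saline, a difference of 0.17 ± 0.076. Fth1 was higher in enriched ethanol and lower in standard ethanol than in the saline group of the same housing. Imprinted genes had a median of 0.0049 in enriched cages, with 16 of 29 above 0; Nnat had 354, 398 and 447 TPM in enriched ethanol, against 490.3, 400.4 and 316 TPM in enriched saline, and Dio3 had 2.03, 1.99 and 2.98 TPM in enriched ethanol, against 1.99, 3.696 and 1.24 TPM in enriched saline. Granule cell markers had a median of 0.093, clock genes of 0.10 and collagens and laminins of -0.11, each with the sign opposite to that in standard cages. Without enriched saline replicate 2 these medians were 0.18, 0.029 and -0.017. Gfap, level in standard cages, had 276, 251 and 242 TPM in enriched ethanol, against 169, 202 and 166 TPM in enriched saline, a difference of 0.52 ± 0.090.

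**Figure D5:**
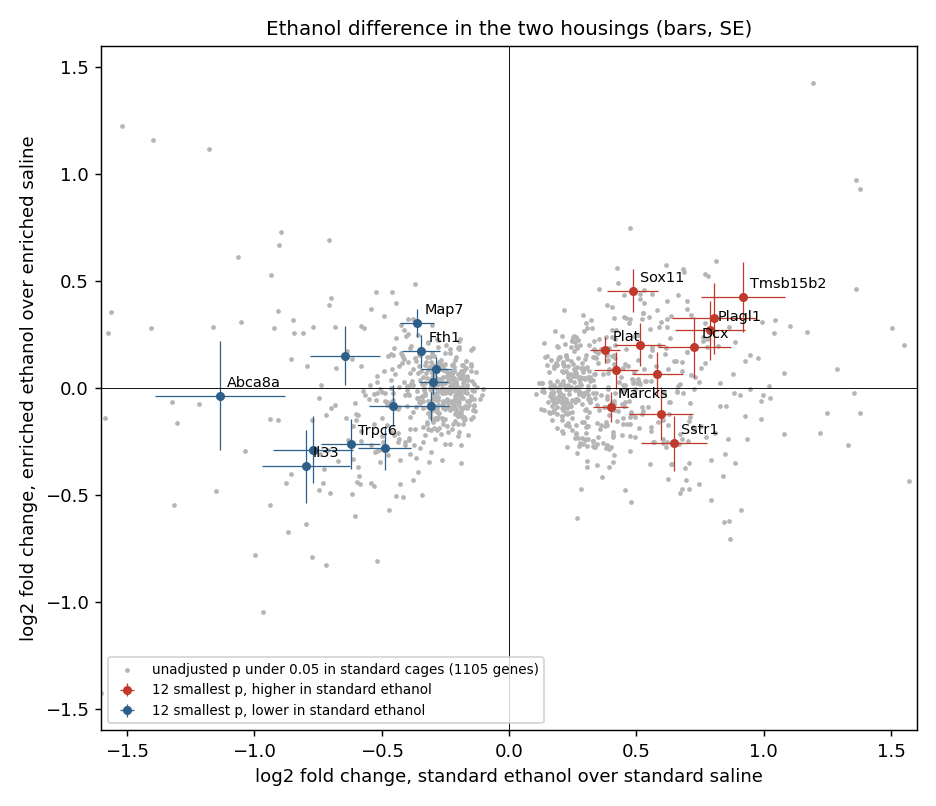
Difference between ethanol and saline in standard cages (x axis) and in enriched cages (y axis), both as log2 of TPM + 0.5, for the 1105 genes with an unadjusted p under 0.05 in standard cages; the 24 genes with the smallest p carry bars of 1 SE. The 42 genes beyond 1.6 on either axis are not drawn. The points form 2 clouds left and right of 0, with no clear lean along the diagonal, and Map7 lies in the quadrant of opposite directions.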

How the data were processed

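RNA of 12 mouse hippocampi was sequenced after ribosomal RNA depletion with a stranded total RNA kit, per the labels' protocols. The submitters' processing notes name CASAVA, kallisto, sleuth and mm10, with versions and annotation release not given in the sources used here and no roles or order. The authors deposited this signal as a gene table named TPM. Column sums ran from 973187 to 1024536 where plain TPM has 1 fixed sum, so the values are not plain TPM. The signal was therefore taken as proportional to TPM within a library, not the plain TPM named in the design, and the same log-scale test suits both. Column names gave the sample for all 12 libraries, and no libraries held identical values. Genes averaging 1 TPM or more across the libraries were tested as log2(TPM + 0.5) with limma 3.58.1 in R 4.3.3 (4 group means, 8 residual degrees of freedom, mean-variance trend), with Benjamini-Hochberg adjustment over 14947 genes. The code was tested on simulated data. Symbols, positions and biotypes are from GENCODE M21 on GRCm38, which gave 35879 of 36119 identifiers a symbol. Genes were named by rule: both called genes, the 12 smallest p values and 5 largest differences in each direction among non-overlapping named genes at 5 TPM or more, up to 4 non-overlapping members per direction of each list, and 17 fixed genes. Some genes this rule names are not reported here. The genes and lists were chosen with earlier results of these data known, so no list was tested as a set. Alternatives changed the pseudocount, the filter, the scaling, the fit and the libraries included. Same-numbered libraries of the standard groups did not deviate together, so the numbers were not taken to pair animals. Estimated counts, read depth and the sex of the mice were not analysed here.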

Additional observations from a re-analysis of the deposited data

Results flagged for a closer look

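A test of the difference between housings, in the same limma fit, called Gm44922 and ENSMUSG00000118641. Both were at 0 in all 6 enriched-cage libraries, so for them this contrast only repeats the standard-cage difference with its sign reversed. It is not a further result. For Gm44922 the ethanol contrast differed between enriched and standard cages (adjusted p = 0.00263), with values of 0 in the 3 standard ethanol libraries, 8.47, 8.41 and 8.35 TPM in the 3 standard saline libraries and 0 in all 6 enriched-cage libraries. For ENSMUSG00000118641 the contrast also differed (adjusted p = 0.0418), with 10.4, 5.69 and 4.41 TPM in the 3 standard ethanol libraries, 0 in the 3 standard saline libraries and 0 in all 6 enriched-cage libraries. No size is given, since it would depend on the pseudocount where a group is at 0.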

How the results depend on the processing

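Counts of called genes depended on the settings. The 2 called genes became 0 with a pseudocount of 0.1, 0 with only genes of mean 5 or more, 7 with no filter on low values and 4 with the standard-cage libraries alone, and the 2 genes called for the difference between housings became 0, 0 and 4 under the first 3 of these and 1 after quantile normalization. Leaving out each standard-cage library in turn gave 2 to 7 called genes (7 without standard saline replicate 2, 4 without standard saline replicate 1). For the difference between housings it gave 1 to 7 genes. There were 7 without standard saline replicate 2, and 1 without standard ethanol replicates 2 or 3 or standard saline replicate 1. That test also called 1 gene without enriched saline replicate 2, an alternative chosen after seeing the data. The other enriched-cage libraries were not left out, although they form part of that contrast. Leaving out a standard-cage library also gave 1409 to 1970 genes with the remaining standard ethanol libraries all above and 1362 to 1781 all below those of standard saline, where fewer libraries make separation easier by construction (914 and 895 without enriched saline replicate 2), and 43.0 to 56.3% of genes with the same direction in enriched cages. With the replicate number as a block, 2 genes were called, with 570 higher and 519 lower at an unadjusted p under 0.05 and 51.3% in the same direction in enriched cages; the correlations of same-numbered libraries were -0.15, -0.014 and -0.079. Of 745 values of named genes, 12 had the other sign, all without 1 library and none of a called gene: the differences then ran from -0.065 to 0.10 for Bdnf, -1.59 to 0.39 for Ttr, -0.27 to 0.47 for Nr4a1, -0.069 to 0.071 for Gfap, -0.25 to 0.53 for Arc, -0.015 to 0.62 for Egr1 and -0.043 to 0.35 for Mbp. Of 986 list medians under the alternatives, 977 moved by less than the spread between replicates. That spread includes standard saline replicate 2 itself, which widens it for lists where this library stands apart. The count thus cannot show that such medians hold without it: the meningeal fibroblast median went from 0.39 to 0.020. Depth is unknown, and the SE of low genes limits them most.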

Other observations

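Some gene families outside the account above had members in both directions, beside the background of 6.11% higher and 5.99% lower. Of 64 replication-dependent histone genes 8 were higher and 7 lower without overlap, with a median of -0.020. These small genes have near-identical copies whose reads cannot be divided with certainty: Hist1h2ad had 9.72, 8.36 and 9.83 TPM in standard ethanol, against 5.73, 5.105 and 5.98 TPM in standard saline, and Hist2h3b had 20.3, 20.2 and 16.1 TPM in standard ethanol, against 29.8, 24.8 and 28.8 TPM in standard saline. Of 56 clustered protocadherin genes, adhesion proteins whose isoforms share 3′ exons, 2 were higher and 7 lower, and 14 were lower without standard saline replicate 2, with Pcdhga6 at 7.94, 7.43 and 8.71 TPM in standard ethanol, against 12.3, 10.2 and 10.02 TPM in standard saline. Spliceosome genes counted 1 higher and 7 lower of 78, and cytosolic ribosomal protein genes 1 and 4 of 83, with medians of -0.015 and -0.043.

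Of 8 endocannabinoid genes 3 were lower and 0 higher without overlap, by small amounts, and 1 had a difference above 0, with Daglb, which makes the ligand 2-AG, at 19.05, 19.9 and 19.6 TPM in standard ethanol, against 20.9, 21.2 and 21.1 TPM in standard saline. Retinoic acid genes counted 1 higher and 2 lower of 18: Rbp4, the retinol carrier, had 15.8, 15.8 and 15.6 TPM in standard ethanol, against 13.02, 10.2 and 12.6 TPM in standard saline, and Stra6, its receptor, had 2.58, 2.82 and 2.61 TPM in standard ethanol, against 3.54, 3.84 and 4.15 TPM in standard saline. Rbp4 had a difference of -0.37 ± 0.13 in enriched cages beside 0.39 ± 0.13 in standard cages (difference between housings, limma adjusted p = 0.509). Glucocorticoid response genes counted 2 higher and 1 lower of 23, and unfolded protein response genes 2 and 1 of 23. Markers of neighbouring regions were present in every library: striatal markers summed to 141 to 152 TPM in standard ethanol and 139 to 150.1 TPM in standard saline, choroid plexus markers to 62.5 to 476 TPM in standard ethanol and 109 to 163 TPM in standard saline, and erythrocyte markers to 1912 to 9526 TPM in standard ethanol and 1904 to 8288 TPM in standard saline. The striatal receptor gene Drd2 was low in all, at 0.903, 0.773 and 0.867 TPM in standard ethanol, against 0.994, 1.04 and 1.41 TPM in standard saline.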
